A study of Mus musculus with 2 samples.

Results

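The genes of the AP-1 family were examined for the Smad2/3 regions that lie around them in NMuMG cells, an epithelial line of the mouse mammary gland. The members were 7 stretches of the genome (build mm9), each 210 to 240 kb long and placed by a fixed rule around Junb, Jun, Fos, Fosb, Fosl1, Fosl2 or Atf3. A region of the deposited list was a member when its centre lay in one of these windows. The windows ran from 87.40 to 87.61 Mb of chromosome 8 for Junb, from 94.61 to 94.82 Mb of chromosome 4 for Jun and from 86.71 to 86.92 Mb of chromosome 12 for Fos. For Fosb they ran from 19.78 to 20 Mb of chromosome 7, for Fosl1 from 5.34 to 5.56 Mb of chromosome 19, for Fosl2 from 32.33 to 32.57 Mb of chromosome 5 and for Atf3 from 192.89 to 193.11 Mb of chromosome 1. Together they held 31 of the 5847 regions of the list. One chromatin immunoprecipitation (ChIP-seq) library, made with an antibody to Smad2/3, and 1 input library were labelled, both from cells exposed during 1.5 h to TGF-beta3 (1 ng/ml) with 10% serum present. The growth medium also contained 10 ug/ml insulin. A list of called regions from the ChIP library was analysed, with no replicate and no untreated cells, so it gives no measure of change on treatment. Sequencing depth is unknown. The list gives no RNA, so the labelled cell type could not be checked by its markers. Gene positions of mm9 were not used here. Hence whether each gene lies in its window was not checked, a window also spans other genes, and no region below is assigned to a gene.

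AP-1 is a transcription factor made of pairs of proteins of the Jun, Fos and ATF families, joined through a leucine zipper. Many of its genes are immediate early genes, which respond within a short time to growth factors and stress. Smad2 and Smad3 carry the TGF-beta signal from the receptor to the nucleus, where Smad3 binds short DNA elements together with Smad4. Smad complexes also bind beside other factors, AP-1 among them, and Junb is a known early target gene of TGF-beta.

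Every one of the 7 windows held Smad2/3 regions, but the numbers were unequal. The Fos window held 7 regions, the Junb, Fosb and Fosl2 windows held 6 each, and the Jun, Fosl1 and Atf3 windows held 2 each. The 4 fuller windows thus carried 25 of the 31 regions. The windows made up 0.0604% of the span of the list (the sum, over chromosomes, of the distance from the first to the last region) and held 0.530% of its regions. Their density was 20.3 regions per Mb, against 2.30 per Mb in the rest of the span, a ratio of 8.81.

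For a background, the span of each chromosome was cut into consecutive windows of 219 kb, the mean length of the 7. Of 11574 such windows, 26.1% held at least 1 region, where all 7 of the AP-1 windows did. At least 2 regions lay in 11.9% of the windows, and again in all 7 of the AP-1 windows. With the AP-1 windows 50 kb shorter at both ends, however, Jun, Fosl1 and Atf3 held only 1 each. At least 6 regions lay in 0.821% of the windows, or in 95 of them, and in 4 of the 7 AP-1 windows. The cut of 6 equals the lowest number held by these 4 windows. Their count depended on the window edges and on close regions. With the windows 50 kb shorter at both ends only Junb held at least 6 (background of 119 kb windows 0.201%), and with regions within 2 kb merged only Fosb did (background 0.389%). Among the 3022 background windows that held any region, 3.14% held at least 6. With the edges of the rule and every region counted, the Junb, Fos, Fosb and Fosl2 windows thus lay in the upper tail of the background. Those of Jun, Fosl1 and Atf3 lay at a level that 11.9% of the windows reached. These background windows were not placed on genes, and the AP-1 windows were not compared with windows around other genes.

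**Figure D1:**
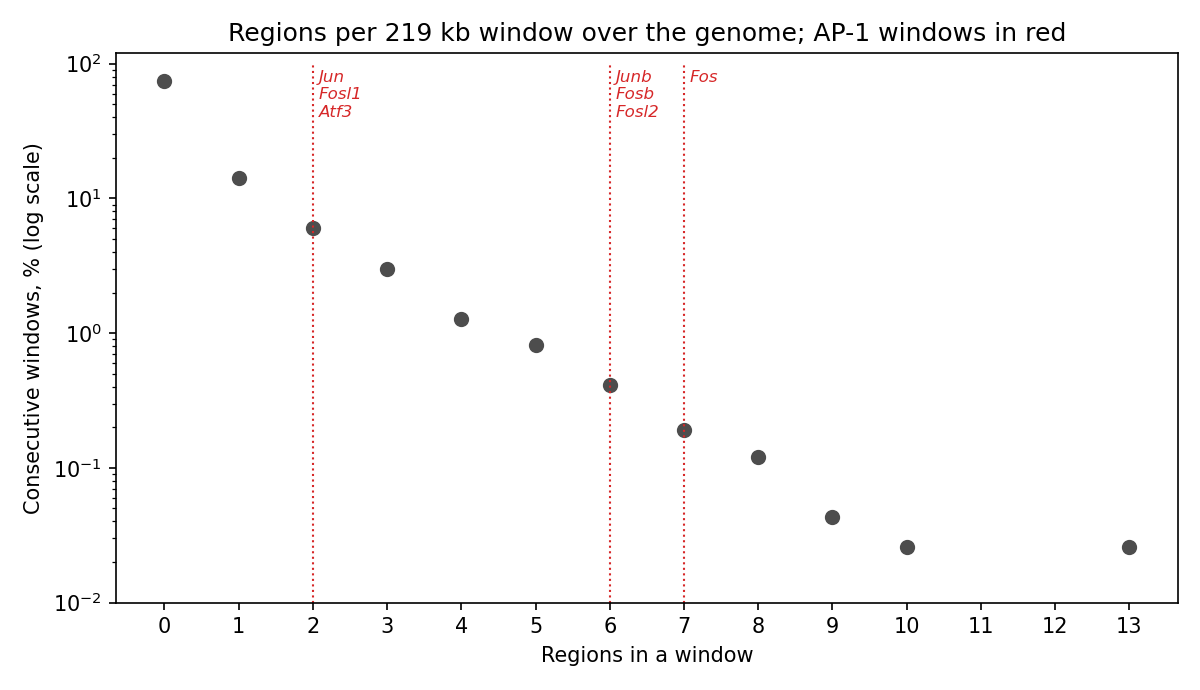
Share of 11574 consecutive 219 kb windows (vertical axis, %, log scale) by the number of Smad2/3 regions they held (horizontal axis), with dotted red lines at the numbers found in the AP-1 windows. Windows with 6 regions made up 0.415% and those with 7 made up 0.190%, whereas 73.9% held none.

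**Figure D2:**
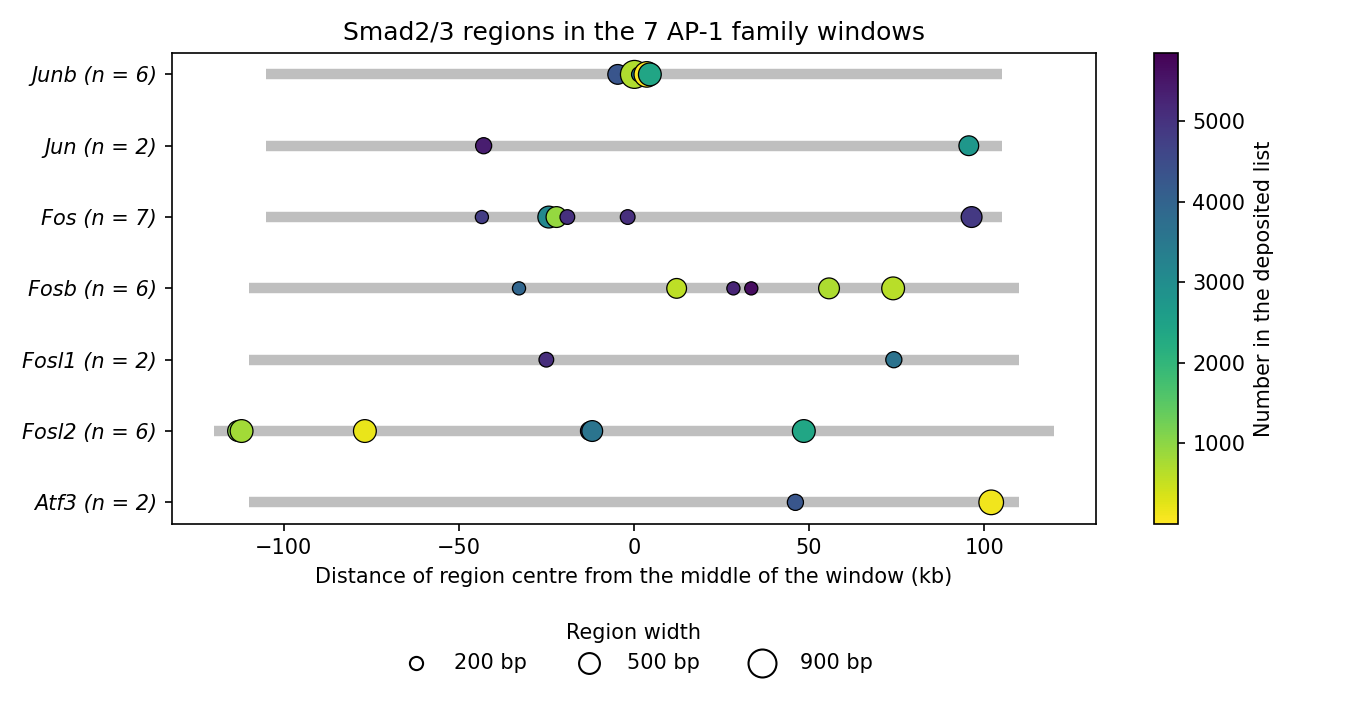
Position of the 31 Smad2/3 regions in the 7 windows (grey bars), as the distance of the region centre from the window's middle in kb, with circle area proportional to width and colour giving the number in the list. The 6 regions of the Junb window lie within 5 kb of its middle and overlap in the drawing, whereas those of the other windows are spread out.

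The sequences of the mm9 regions were not used here. To show what lies before the start of these genes, promoters were taken from RefSeq (build GRCm38.p6), where 6 of the 7 members matched and Fosl1 did not. Those of the 4 genes with the fuller windows follow, as the 250 bases before the start, 5′ to 3′ on the gene's strand. Capitals mark the Smad element (GTCT, or AGAC on the other strand), the GC-rich Smad motif GGCGCC and the AP-1 site (TGACTCA or TGAGTCA). Positions of GRCm38.p6 and of mm9 are not comparable, so the sequences do not show whether a region covers a promoter.
Junb, chr8:84978749-84978998, minus strand: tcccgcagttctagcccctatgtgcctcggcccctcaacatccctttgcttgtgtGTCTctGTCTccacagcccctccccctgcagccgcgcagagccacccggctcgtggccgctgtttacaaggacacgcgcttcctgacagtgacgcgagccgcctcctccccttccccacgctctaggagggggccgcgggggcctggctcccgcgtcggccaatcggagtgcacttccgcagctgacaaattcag
Fos, chr12:85473640-85473889, plus strand: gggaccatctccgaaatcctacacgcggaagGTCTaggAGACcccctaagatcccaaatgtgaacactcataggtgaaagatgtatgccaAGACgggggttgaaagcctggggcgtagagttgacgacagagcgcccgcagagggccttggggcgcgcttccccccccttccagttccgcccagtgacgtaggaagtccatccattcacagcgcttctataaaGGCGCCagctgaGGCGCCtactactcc
Fosb, chr7:19310046-19310295, minus strand: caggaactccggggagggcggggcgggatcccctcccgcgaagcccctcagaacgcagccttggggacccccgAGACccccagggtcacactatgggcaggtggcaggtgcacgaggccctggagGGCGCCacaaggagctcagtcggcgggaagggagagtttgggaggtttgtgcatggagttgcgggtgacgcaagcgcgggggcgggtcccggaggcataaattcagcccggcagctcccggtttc
Fosl2, chr5:32136222-32136471, plus strand: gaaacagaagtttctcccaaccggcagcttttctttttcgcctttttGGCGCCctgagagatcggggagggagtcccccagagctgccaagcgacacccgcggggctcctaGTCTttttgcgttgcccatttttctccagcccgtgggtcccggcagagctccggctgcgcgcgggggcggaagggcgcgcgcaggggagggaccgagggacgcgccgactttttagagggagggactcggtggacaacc

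The Smad element was found in all 6 matched promoters. It is short, and 82.9% of 32851 RefSeq promoters of this length hold it on either strand. Junb had 2 matches, as close neighbours on the same strand, and Fos had 3, while Fosb, Fosl2, Jun and Atf3 had 1 each. At least 3 matches occurred in 29.1% of all promoters. The motif GGCGCC, which reads the same on both strands, occurred at 2 places in the Fos promoter and once in those of Fosb and Fosl2, against 9.59% of all promoters with a match. The 6 promoters held 58.4 to 68.8% G and C, against a median of 52.4% over all promoters, and the part of this in the matches of a motif made of G and C was not tested. Junb, Jun and Atf3 had no GGCGCC in these bases. No exact AP-1 site was found in the 6 promoters, nor an exact cAMP response element (TGACGTCA), nor the Smad palindrome (GTCTAGAC), in which both forms of the Smad element stand end to end. All promoters held these at 4.46%, 1.55% and 0.167%, in that order. The matches describe letters and not bound sites.

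Junb encodes a Jun protein that pairs with Fos proteins and is often a weaker activator than Jun. The Junb window held the most compact group of Smad2/3 regions. All 6 of its regions lay on chromosome 8 between 87500151 and 87509849, a stretch of 9.70 kb of which they covered 3.34 kb (34.5%). The rest of the window was empty, and the nearest regions outside it had centres 105 kb before and 1190 kb after its edges. Region number 26 of the list, at 87508301 to 87509049, was 749 bp wide and had the lowest number of all 31. Next to it, 201 bp away, lay number 2414 at 87509251 to 87509849 with a width of 599 bp. The widest of the 31, with 899 bp, was number 688 at 87504701 to 87505599, and number 1897 with 399 bp ended 251 bp before it, at 87504051 to 87504449. The group was completed by number 3412, at 87506301 to 87506549 and 249 bp wide, and by number 4310, at 87500151 to 87500599 and 449 bp wide. Wide and narrow regions, and early and late ones, thus stood side by side. Across the list there were 5747 runs of 6 consecutive regions, and 2 of them had their centres within the 9.18 kb of the Junb run, itself included. The other one lay on chromosome 3 at 133897451 to 133903549, with centres within 5.83 kb and list numbers from 61 to 4788. This measure was chosen after the Junb regions had been seen. In gene order, with the positions of GRCm38.p6 used for the order alone, the protein-coding neighbours of Junb were Prdx2, which encodes a peroxiredoxin, and Hook2, which encodes a linker to microtubules.

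**Figure D3:**
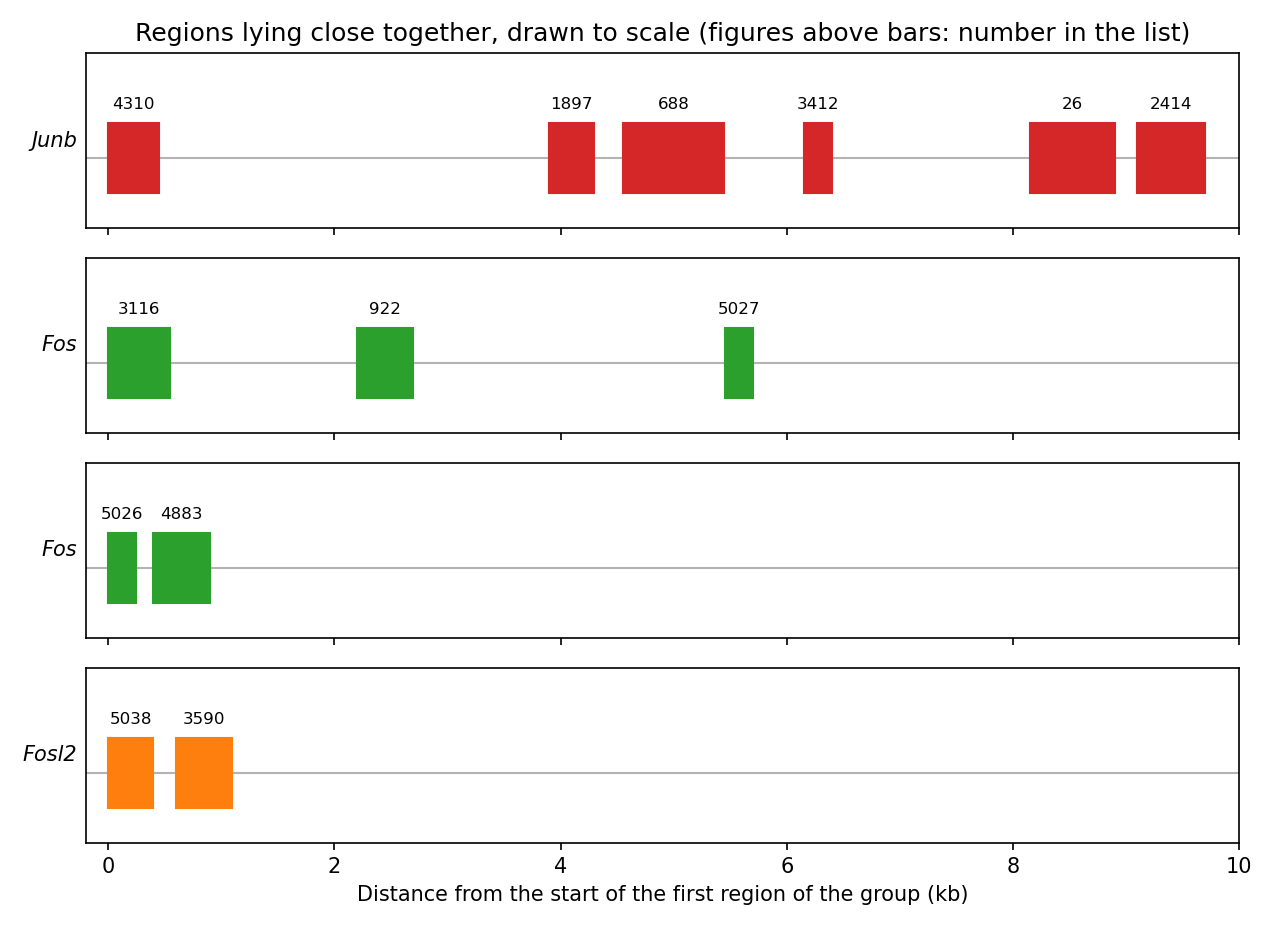
Regions of the Junb, Fos and Fosl2 windows that lie close together, drawn to scale from the start of the first region of each group (kb), with the list number above each bar. The 6 Junb regions span 9.70 kb, while the pairs of Fos and Fosl2 regions at the bottom are 151 and 201 bp apart.

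Jun, the founding member of the family, forms dimers with itself and with Fos proteins. Its window held only 2 regions, which stood 139 kb apart. Number 5372 lay on chromosome 4 at 94671951 to 94672249 and was 299 bp wide. Number 2758, at 94810401 to 94810849, was 449 bp wide and lay 9.38 kb inside the upper edge of the window. The next region beyond that edge, number 2528, had its centre 35.0 kb outside it. With the window 50 kb shorter at both ends 1 region was left, and with it 50 kb longer there were 3. The Jun window thus differed from that of its relative Junb in number (2 against 6), in list numbers and in spacing.

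Fos encodes the classic partner of Jun and is an immediate early gene. Its window held 7 Smad2/3 regions, the most of all, although chromosome 12 had a low density of 1.77 regions per Mb. They were mostly late in the list, with 6 of the 7 after number 2923, its middle. Their median width was 249 bp, while 3 of them were 499 or 549 bp wide. The one early region was number 922, at 86792651 to 86793149 and 499 bp wide. It stood between number 3116, at 86790451 to 86790999 with 549 bp, and number 5027, at 86795901 to 86796149 with 249 bp. These 3 regions formed a group 5.70 kb long. Of 5807 runs of 3 consecutive regions in the list, 97 (1.67%) were as compact, itself included, at 82 separate places. This group too was picked after the regions had been seen.

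On either side of that group of the Fos window lay a lone region. Number 4797, at 86771501 to 86771699, was 199 bp wide and 19.1 kb away between centres. Number 5049, at 86813101 to 86813349 and 249 bp wide, lay 17.2 kb away and 1.78 kb before the middle of the window. A pair followed near the upper edge, after 97.7 kb without a region. It was made of number 5026, at 86910801 to 86911049 with 249 bp, and number 4883, at 86911201 to 86911699 with 499 bp, and their edges were 151 bp apart. Beyond the edge, at a distance of 20.4 kb, stood number 1573 at 86940101 to 86940749 with 649 bp, wider than any of the 7 inside. The next protein-coding genes after Fos in gene order were Jdp2 and Batf, which encode further partners of Jun proteins that can repress AP-1 targets. Which of these genes the regions near the upper edge lie nearest to was not determined.

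Fosb encodes a Fos protein that is also made as a shorter form without much of its activation domain. The Fosb window on chromosome 7 held 6 regions spread over 107 kb, with a median of 18.4 kb between neighbouring centres. They fell into 3 early and 3 late ones with none between numbers 715 and 3931. The early regions were number 588 at 19902001 to 19902449 (449 bp), number 618 at 19963751 to 19964349 (599 bp) and number 715 at 19945451 to 19945949 (499 bp). The late ones were all 199 bp wide. They were number 3931 at 19857101 to 19857299, number 5237 at 19918301 to 19918499 and number 5662 at 19923401 to 19923599, the latest of all 31. The last 2 of these were the only regions of the Fosb window with another within 10 kb, at 5.10 kb. Compared with Junb, the same number of regions was therefore spread over a far longer stretch, 107 kb against 9.18 kb between the outer centres. Its neighbours in gene order were Rtn2, which encodes a reticulon, and Ercc1, which encodes a DNA repair protein.

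Fosl1 encodes Fra-1, a Fos protein without the activation domain of Fos. The Fosl1 window, on chromosome 19, held a pair of late and narrow regions. They were number 3614 at 5524101 to 5524399, with 299 bp, and number 5080 at 5424901 to 5425149, with 249 bp. They stood 99.2 kb apart. This was the only one of the 7 windows without a region in the first 2923 of the list, and the only one without a region at or above the median width of the list. Chromosome 19 itself had 3.56 regions per Mb, the highest density among the 7 chromosomes.

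Fosl2 encodes Fra-2, the close relative of Fra-1. Its window, on chromosome 5, held 6 regions that were all at least 399 bp wide, with a median of 549 bp. The earliest was number 198, at 32372951 to 32373549 and 599 bp wide, and it stood alone, 34.9 kb from the nearest other centre. A pair lay near the lower edge, number 1036 at 32336751 to 32337249 (499 bp) and number 821 at 32338101 to 32338699 (599 bp). Number 1036 was the member nearest to any window edge, 7 kb inside it. A closer pair lay 12.6 and 11.9 kb before the middle of the window, with edges 201 bp apart. It was made of number 5038 at 32437251 to 32437649 (399 bp) and number 3590 at 32437851 to 32438349 (499 bp). Number 2380, at 32498201 to 32498799 and 599 bp wide, stood alone 60.4 kb further on. With the window 50 kb shorter at both ends 3 of the 6 were left, so the Fosl2 count rests in part on the outer regions.

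Atf3 encodes a stress-induced member of the ATF family, which can repress as a pair with itself and activate with Jun proteins. The Atf3 window on chromosome 1 held 2 regions of unlike kind. Number 118, at 193101501 to 193102199, was 699 bp wide, and its list number was the second lowest of the 31. It lay 8.15 kb inside the upper edge. Number 4294, at 193045951 to 193046249, was 299 bp wide and 55.8 kb away. No region lay in the lower part of the window, and the last one before it was 1199 kb below its lower edge. Number 5789 stood 31.9 kb above the upper edge. Batf3, another gene of the family, is the second protein-coding gene before Atf3 in gene order.

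Taking all 31 regions, the width was 199 to 899 bp with a median of 449 bp (interquartile range 249 to 574 bp). The other 5816 regions had a median of 349 bp (249 to 499 bp). The upper quartile of width in the list, 499 bp, was reached by 14 of 31 (45.2%, exact Clopper-Pearson 95% interval 27.3 to 64.0%), against 27.4% of the whole list, a value within that interval. Of these 14, 5 were in the Fosl2 window and 3 each in those of Junb and Fos. Without the Fosl2 window 9 of 25 (36.0%) remained. Width falls with list number in this list, so each member was also set beside the 100 regions nearest to it in list number. It was wider than their median in 17 cases (54.8%, exact 95% interval 36.0 to 72.7%), equal in 6 and narrower in 8. In the whole list 43.6% were wider, a value within that interval. Intervals here and below cover counting error alone and treat regions as independent, which neighbouring regions may not be.

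**Figure D4:**
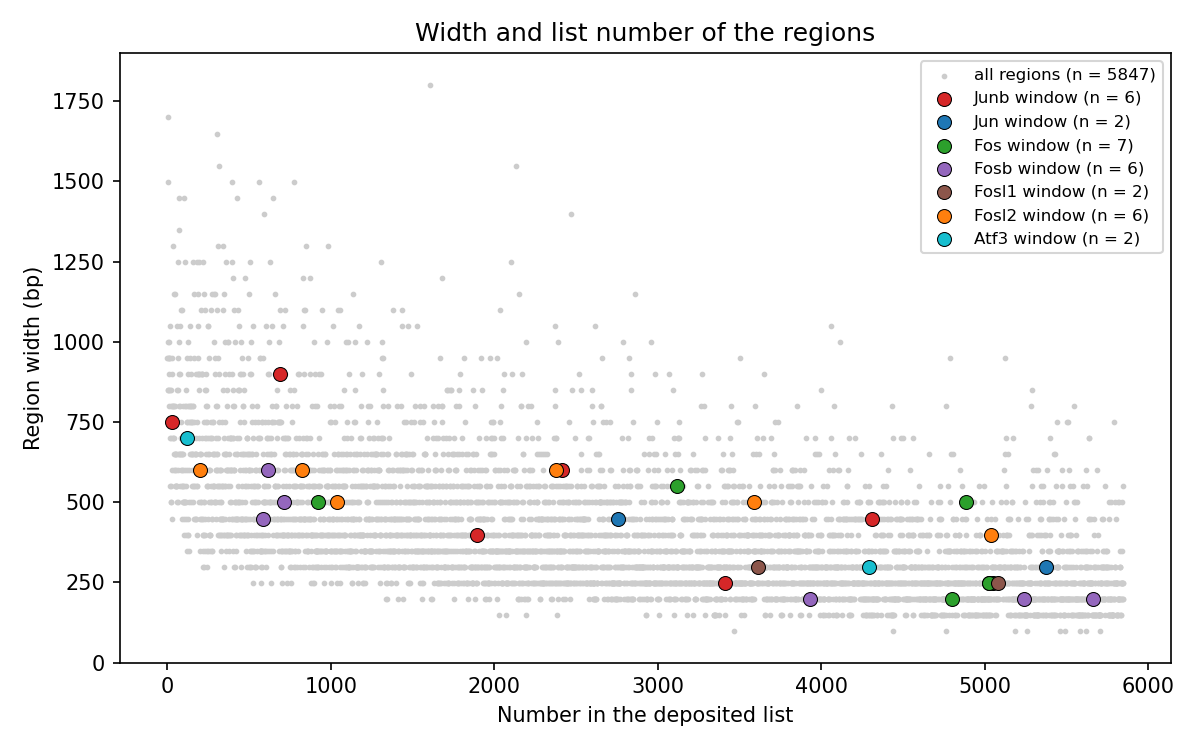
Width (bp) against the number in the deposited list for all 5847 regions (grey) and the 31 regions of the AP-1 windows (coloured by window). The coloured points span the list from number 26 to number 5662 and lie within the grey cloud, with none wider than 899 bp.

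The AP-1 regions were not gathered at the start of the list. Their median number was 3412, against 2922.5 in the other regions, and 14 of 31 (45.2%, exact 95% interval 27.3 to 64.0%) stood in the first 2923. Both values turned to the other side of the list without the Fos window, to a median of 2586 and 13 of 24 (54.2%). Whether list order is a rank by strength is not stated. By cuts at numbers 1000 and 5000, which were not planned, the share of members was above that of the list at both ends. The first 1000 numbers held 9 of 31 (29.0%, exact 95% interval 14.2 to 48.0%) and 17.1% of the list, and numbers above 5000 held 8 (25.8%, 11.9 to 44.6%) and 14.5% of the list. Both list shares lay within the intervals. The 9 early members came from 5 windows, namely Junb, Fos, Fosb, Fosl2 and Atf3. By its lowest number, the Junb window (26) was matched by 0.860% of the occupied background windows, the Atf3 window (118) by 3.67% and the Fosl2 window (198) by 5.92%. The Fosb window (588) was matched by 16.6%, the Fos window (922) by 24.6%, the Jun window (2758) by 59.4% and the Fosl1 window (3614) by 71.9%. The lowest number of a window also depends on how many regions it holds and on its edges. Number 118 lay 8.15 kb and number 198 lay 43.2 kb inside the nearer edge. With the windows 50 kb shorter at both ends, the lowest numbers left were therefore 4294 for Atf3 and 2380 for Fosl2. Those of Junb, Fosb and Fos stayed inside, and those of Jun and Fosl1 did not.

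AP-1 regions had closer neighbours than the rest, in windows that also held more regions per Mb. Windows with as many regions were not compared, so closeness beyond that density was not tested. The median distance to the nearest centre was 5.10 kb (interquartile range 1.09 to 37.5 kb), against 27.7 kb (4.97 to 117 kb) in the other regions. Another centre within 10 kb was found for 17 of 31 (54.8%, exact 95% interval 36.0 to 72.7%), against 34.2% of the whole list. Such a neighbour is mutual, so these regions are not independent and the interval is only a rough guide. These 17 were all 6 of the Junb window, 5 of Fos, 4 of Fosl2 and 2 of Fosb, while Jun, Fosl1 and Atf3 had none. This rested on more than 1 window. Without the Junb window the share was lowest, 11 of 25 (44.0%, 24.4 to 65.1%), and the median distance was 17.2 kb. Without the Fos window it was 12 of 24 (50.0%, 29.1 to 70.9%) and without Fosl2 13 of 25 (52.0%, 31.3 to 72.2%). Each of these intervals spans the value of the list. Those without Fosb, Jun, Fosl1 or Atf3 lay above it. The 17 regions with such a neighbour had a median width of 499 bp and the 14 without one 374 bp. In the rest of the list both kinds had 349 bp. A width of at least 499 bp was reached by 52.9% of the 17 and 35.7% of the 14, with overlapping exact 95% intervals. In the rest of the list it was reached by 31.4% with a neighbour and 25.2% without one. By this share, the direction was thus the same in the rest of the list.

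Part of the number of regions came from such close groups. With regions no more than 2 kb apart joined, the Junb window had 2, the Fos window 5 and the Fosl2 window 4. With every chain of centres within 10 kb counted once, Junb had 1, Jun, Fosl1 and Atf3 2 each, Fos and Fosl2 4 each and Fosb 5. On that count, the total fell from 31 to 20, while the whole list fell from 5847 to 4708. At least 4 chains, the lowest count among Fos, Fosb and Fosl2, were held by 1.24% of the background windows. At least 1 chain, the count of Junb, was held by 26.1%. The Fos, Fosb and Fosl2 windows thus held several places with Smad2/3 regions that lay more than 10 kb apart. The Junb window held a single one, the fewest of the 7.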

How the data were processed

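ChIP-seq regions of 1 anti-Smad2/3 library of NMuMG cells were used. The input library was not analysed here. The submitters' processing notes name Bowtie2 and mm9, with no version. How the peaks were called, at which threshold and with what use of the input is not given in the sources used here. A constant deposited score of 1000 was not used. Starts lie on a 50 bp grid, which limits widths and distances. Printed positions count from 1, after the BED convention. Depth is unknown.

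From the positions, regions were assigned to the 7 windows by their centre, and counts, widths, list numbers and centre distances were computed (Python 3.11.15, pandas 2.3.3, SciPy 1.17.1). All regions in a window are named. With 1 library no test was made and no p-value computed. The counting was tested on simulated data. Members, windows and measures were chosen with earlier results of these data known. Gene order and promoters came from RefSeq tables of GRCm38.p6. Counts at further genes of the family had been planned and were not run, since mm9 annotation was not used. Alternatives were other window lengths, merging, subsets of the list and other neighbour distances.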

Additional observations from a re-analysis of the deposited data

How the results depend on the processing

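The 31 regions in the AP-1 windows became 19 with regions at or above the median width, 14 among numbers up to 2923 and 20 with chains of centres within 10 kb counted once, each because fewer regions enter. They were 22 and 34 with windows 50 kb shorter or longer at both ends, and 23 with regions within 2 kb merged. The 5847 regions of the whole list became 4708 with chains counted once and 5326 with this merging. All 7 windows held a region when shorter or longer, and 6 held one of at least the median width or with a number up to 2923, Fosl1 being without in both. Regions with a neighbour numbered 17, and were 26 at 50 kb, 15 at 5 kb and 22 at 25 kb. They were 11 without the Junb window, 12 without Fos, 13 without Fosl2 and 15 without Fosb. Each of these counts is lower only by the regions of the window left out. Over the whole list 25.2%, 48.3% and 60.7% had a neighbour at 5, 25 and 50 kb. The share of background windows with a region was 25.2% at the shortest window length, 27.6% at the longest and 27.4% without chromosome X, against 26.1%. The median width of the AP-1 regions was 399 or 449 bp in all 9 alternatives, and their median list number 2586 (without the Fos window) to 3760.5 (shorter windows). The 4 windows with at least 6 regions became 1 with shorter windows and 1 with regions within 2 kb merged, and numbered 4 with longer windows. Chosen after seeing the data were these settings for that count, counting chains, leaving out single windows (except Fos for the medians of width and list number) and a background of the 7 chromosomes alone (26.0%). No paired analysis was possible because only 1 library was analysed. A region missing from the list cannot be read as unbound, since depth is unknown.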
